A study of Homo sapiens with 60 samples.

Results

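The 9 genes described here are KLF2, KLF3, KLF4, KLF5, KLF6, KLF9, KLF10 and KLF11, members of the Krüppel-like factor family, and BCL6, a transcriptional repressor of the BTB zinc finger class. They were taken as a list of named genes from the 19712 genes that both deposited tables hold. RNA was sequenced in lung adenocarcinoma lines with mutant EGFR (PC9, HCC827, H1975 and HCC2935), each an established line, with 5 arms per line and 3 libraries per arm, 60 libraries in 20 groups. Osimertinib, an inhibitor of mutant EGFR, was given at 500 nM throughout. Parental cells were kept in drug-free medium for 21 days and then received DMSO, the solvent, for 24 h (the DMSO arm) or osimertinib for 24 h (the acute arm). Cells held in osimertinib for 21 days were drug-tolerant persisters (DTP). DTP cells were also taken 24 h after the drug was removed (short washout) and at a later time (long washout), which was 7 days in PC9, 4 days in HCC827, 3 days in H1975 and 10 days in HCC2935. The labels call the 3 libraries of a group biological replicates and do not say how the cultures were separated, so the p-values measure the spread between these cultures.

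Krüppel-like factors bind GC-rich and CACCC sequences through 3 C-terminal zinc fingers, and they activate or repress genes according to the cofactors that their N-terminal parts recruit. In epithelia KLF4 is tied to cell cycle exit and differentiation and KLF5 to proliferating progenitor cells, KLF6 and KLF10 are transcribed rapidly after growth factor, stress or TGF-beta signals, and KLF9 is a well known target of glucocorticoid and thyroid hormone receptors. BCL6 recruits corepressors, among them NCOR1 and BCOR. It is best known from germinal centre B cells, where it represses differentiation and DNA damage response genes, and its transcription is raised by FOXO factors when the PI3K pathway is inhibited.

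Total estimated counts per library were 17.7 to 25.6 M in HCC827 and HCC2935 and 34.7 to 49.1 M in H1975 and PC9. Each of the 9 genes had counts in every library and passed the filter on low counts in all 4 lines. All 5 epithelial markers were detected in the 60 libraries (KRT8 at 575 to 6127 TPM, EPCAM at 18.1 to 795 TPM, CDH1 at 1.28 to 674 TPM). Of the markers of other cell types, CD3E was listed at 0 in 42 libraries, PTPRC and TEK in 12 each, and COL3A1 and LUM in 10 each, while CD68 (9.50 to 175 TPM) and COL1A1 (4.73 to 167 TPM) were present in all. DCN was at 0 in 8, CD79A in 2, and CD14 and KDR in 1 each. COL1A2 (up to 42.0 TPM), PECAM1 (up to 10.2), CDH5 (up to 21.1) and VWF (up to 1.07) were at 0 in none. MAPK output genes and proliferation genes fell under acute osimertinib, with summed proliferation genes of 2427 to 4043 CPM under DMSO and 524 to 984 CPM in the acute arm over the 4 lines. Several libraries stood apart from their group. In HCC827, DTP replicate 1, short washout replicate 1 and long washout replicate 3 lay on the opposite side of the third principal component from the other libraries of their arms, and DTP replicate 1 held 900.3 CPM of proliferation genes against 1563 and 1346 in the other two. DTP replicate 2 of H1975 held 1775 CPM of them against 1084 and 761, and long washout replicate 3 of PC9 held 1466 CPM against 2106 and 2347. The H1975 libraries labelled long washout held 883 to 1198 CPM of proliferation genes, below the 1742 to 2438 CPM of the short washout libraries and inside the range of the DTP libraries, although by the labels the long washout lasted until cells again grew exponentially. In HCC827, long washout (1134 to 1346 CPM) also lay inside the DTP range (900.3 to 1563 CPM). The summed level of 5 fibroblast markers went from 5.26 to 9.46 TPM under DMSO to 25.6 to 60.3 TPM in DTP cells of HCC827, where 4 of 5 were called higher, and from 6.17 to 8.40 to 13.4 to 17.9 TPM in PC9 (2 of 3 tested). In HCC2935 it was 27.0 to 33.7 TPM under DMSO and 44.3 to 84.6 TPM in DTP cells. In H1975 the acute libraries (88.7 to 199 TPM) lay above DMSO (21.4 to 58.2 TPM), and the DTP libraries (37.4 to 109 TPM) overlapped it. The summed 5 leukocyte markers went in HCC2935 from 74.8 to 109 TPM under DMSO to 10.4 to 11.5 TPM in DTP cells, nearly all of it CD68 (75.3 to 7.67 CPM), the 1 marker called there, while CD14 was not called and CD3E, CD79A and PTPRC were too low to test. In H1975 DTP cells CD79A (3.56 to 0.0864 CPM) and PTPRC (3.93 to 1.38 CPM) were called lower than under DMSO and CD14 (1.01 to 2.87 CPM) higher. The summed 5 epithelial markers went from 6555 to 8569 TPM under DMSO to 2687 to 4596 TPM in DTP cells of HCC827. In H1975 they went from 3062 to 3829 to 1869 to 2519 TPM. The part of these markers in the members' changes was not tested.

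Levels are given in 2 ways. Within a line, CPM (counts scaled to a common library size with edgeR's TMM factors) were used, and levels of different genes or lines are set side by side in TPM, which also account for transcript length, while every test and fold between lines comes from edgeR's fit of the counts. Log2 fold changes are given with their standard error and with edgeR quasi-likelihood p-values adjusted over all genes tested in that line, and a gene was called at an adjusted p under 0.05. The acute, DTP and long washout arms were each compared with the same DMSO libraries, and the washout arms and the acute arm with the same DTP libraries, so these comparisons are not independent of each other.

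Under DMSO, KLF5 was the most abundant member in HCC2935 and PC9, KLF10 in HCC827 and KLF6 in H1975. KLF5 was at 144 ± 24.5 TPM in HCC2935 (mean ± SD, n = 3), 57.7 ± 12.8 in HCC827, 34.7 ± 3.33 in PC9 and 16.2 ± 1.01 in H1975. All neighbours in this order differed (largest adjusted p = 0.00482, PC9 against HCC827). KLF3, a repressor that works with CtBP, was ordered in the same way, from 43.1 ± 2.86 TPM in HCC2935 to 10.6 ± 1.00 in H1975, again with every neighbour differing (largest adjusted p = 0.00907). KLF4 was at 47.9 ± 9.36 TPM in HCC2935 and 30.6 ± 3.32 in PC9, with TPM ranges that did not overlap (40.3 to 58.4 and 26.9 to 33.2) but no call in the fit of the counts (adjusted p = 0.329), and at 16.0 ± 4.59 in HCC827 and 13.1 ± 3.01 in H1975, which were not called either (adjusted p = 0.1). HCC2935 therefore held the highest mean TPM of KLF3, KLF4 and KLF5 among the 4 untreated lines.

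The widest differences between untreated lines were those of KLF2 and KLF9. KLF2, which endothelial cells and lymphocytes are known to express, was at 28.0 ± 9.07 TPM in HCC2935, 8.96 ± 3.98 in H1975, 0.705 ± 0.345 in HCC827 and 0.621 ± 0.232 in PC9. In the fit of the counts HCC2935 exceeded PC9 34.2-fold (adjusted p = 3.1e-07), and PC9 and HCC827 were not called (adjusted p = 0.927). KLF9 was at 17.3 ± 0.955 TPM in HCC2935 and at 1.94 ± 0.378 in H1975, 1.44 ± 0.320 in HCC827 and 1.22 ± 0.241 in PC9, where the last 3 lines were not called against each other (adjusted p of 0.0963 to 0.725). HCC2935 exceeded H1975 8.05-fold for KLF9 in that fit (adjusted p = 3.59e-08).

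KLF10 stood out in HCC827 at 97.4 ± 21.7 TPM against 29.9 ± 4.61 in H1975, 29.1 ± 1.43 in HCC2935 and 22.6 ± 2.99 in PC9, and the latter 3 were not called against each other (adjusted p of 0.332 to 0.825). KLF6 ran from 21.4 ± 3.13 TPM in PC9 through 34.2 ± 10.1 in HCC827 and 52.4 ± 9.94 in HCC2935 to 66.7 ± 8.12 in H1975, where HCC827 and HCC2935 overlapped (23.3 to 43.1 and 40.9 to 58.2 TPM) and were not called (adjusted p = 0.131). KLF11, a TGF-beta inducible relative of KLF10, kept to a narrow range, from 7.98 ± 0.555 TPM in HCC827 to 18.9 ± 1.56 in HCC2935. BCL6 was at 20.2 ± 3.81 TPM in PC9, 15.2 ± 3.34 in HCC2935, 12.2 ± 1.73 in H1975 and 5.56 ± 1.17 in HCC827, and only HCC2935 and H1975 were not told apart (adjusted p = 0.444). Of 54 combinations of a gene and a pair of lines, 42 were called, while 57.3% to 69.1% of 15214 genes were called in each pair of lines (64% for PC9 and HCC827, 64.5% for PC9 and H1975, 66.4% for HCC827 and HCC2935, and 67% for H1975 and HCC2935). Depth was alike in HCC827 and HCC2935 and alike in PC9 and H1975, and differences lay within these pairs too, such as KLF9 (HCC2935 9.98-fold over HCC827) and KLF2 (H1975 12.1-fold over PC9). Between the pairs, line and depth cannot be told apart. In bulk RNA, fewer cells with a transcript and less of it per cell cannot be told apart either.

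**Figure D1:**
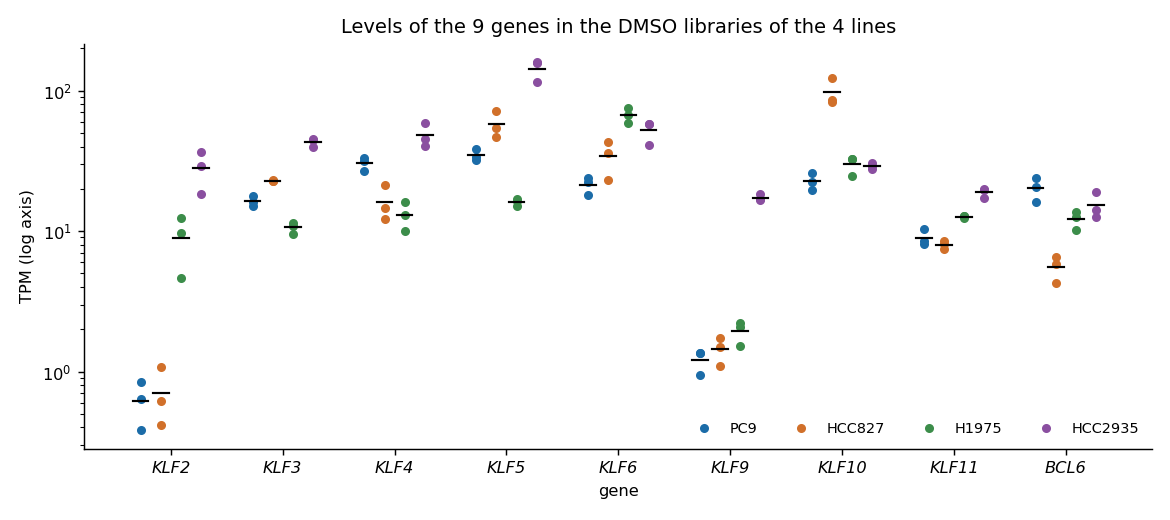
TPM (log axis) of the 9 genes in the 12 DMSO libraries. Points are libraries, coloured by line, and bars are the means of 3. KLF2 and KLF9 are highest in HCC2935, at 28.0 and 17.3 TPM on average, KLF10 is highest in HCC827 at 97.4 TPM, and BCL6 spans 5.56 to 20.2 TPM between lines.

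Across the 6 comparisons members were called mostly under the drug and seldom on its removal. After 24 h of osimertinib, 6 of 9 were called in PC9 (4 higher, 2 lower, where of all tested genes 66.2% were called, 34.5% higher and 31.7% lower), 6 in HCC827 (4 higher, 2 lower, beside 39% of genes, 18.7% higher and 20.2% lower), 3 in H1975 (all higher, beside 51.6% of genes, 27.8% higher and 23.8% lower) and 7 in HCC2935 (2 higher, 5 lower, beside 47.1% of genes, 24.9% higher and 22.2% lower). In DTP cells against DMSO the counts were 7 in PC9 (all higher, beside 69.2% of genes, 35.7% higher and 33.5% lower), 6 in HCC827 (5 higher, 1 lower, beside 43.4% of genes, 23% higher and 20.4% lower), 5 in H1975 (2 higher, 3 lower, beside 51.7% of genes, 26% higher and 25.7% lower) and 6 in HCC2935 (1 higher, 5 lower, beside 52.8% of genes, 27% higher and 25.8% lower). In every line the drug changed a large share of all genes, so these counts are not particular to the members. In HCC2935 5 of 9 were lower acutely and 5 of 9 in DTP cells (3 of them, KLF2, KLF4 and KLF9, in both), against 22.2% and 25.8% of all genes called lower there, and in PC9 7 of 9 were higher in DTP cells, against 35.7% of all genes.

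DTP cells compared with acute cells gave 4 calls in PC9 (all higher, beside 33.9% of genes, 16.1% higher and 17.8% lower), 4 in HCC827 (1 higher, 3 lower, beside 29.4% of genes, 18% higher and 11.5% lower), 6 in H1975 (2 higher, 4 lower, beside 37.2% of genes, 18.3% higher and 18.9% lower) and 7 in HCC2935 (3 higher, 4 lower, beside 44.7% of genes, 22.8% higher and 21.9% lower). After the short washout, BCL6 in PC9 was the 1 call in 36 pairs of a member and a line (5.92% of genes in PC9, 3.87% higher and 2.05% lower, 3.14% in HCC2935, 2.32% higher and 0.816% lower, 0.0585% in H1975, 0.0585% higher and 0% lower, and 0% in HCC827). Long washout against DTP gave 5 calls, all lower and all in PC9 (37.2% of genes there, 20.4% higher and 16.8% lower, 11.8% in HCC2935, 6.82% higher and 4.94% lower, 0.0065% in H1975, 0% higher and 0.0065% lower, and 0% in HCC827). Against DMSO, the long washout arm had 3 calls in PC9 (all higher, beside 44.9% of genes, 23.4% higher and 21.5% lower), 6 in HCC827 (4 higher, 2 lower, beside 42% of genes, 21.9% higher and 20% lower), 4 in H1975 (2 higher, 2 lower, beside 53.3% of genes, 27.3% higher and 26% lower) and 7 in HCC2935 (1 higher, 6 lower, beside 43.3% of genes, 22.5% higher and 20.8% lower).

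The size of the drug effect differed between lines for most members. A test of equal change in the 4 lines called 6 of 9 members for acute osimertinib (all except KLF3, KLF4 and KLF10), with 41.4% of 16583 genes called. It called 8 of 9 for DTP against DMSO (all except KLF6, 63.9%), 7 of 9 for DTP against acute (all except KLF3 and KLF5, 54.3%) and 7 of 9 for long washout against DMSO (all except KLF6 and KLF10, 57.1%). For long washout against DTP it called KLF9 (15.2% of genes), and for short washout against DTP none (0.0121% of genes, 0 members at an unadjusted p under 0.05 and 0 with limma on log2 TPM).

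**Figure D2:**
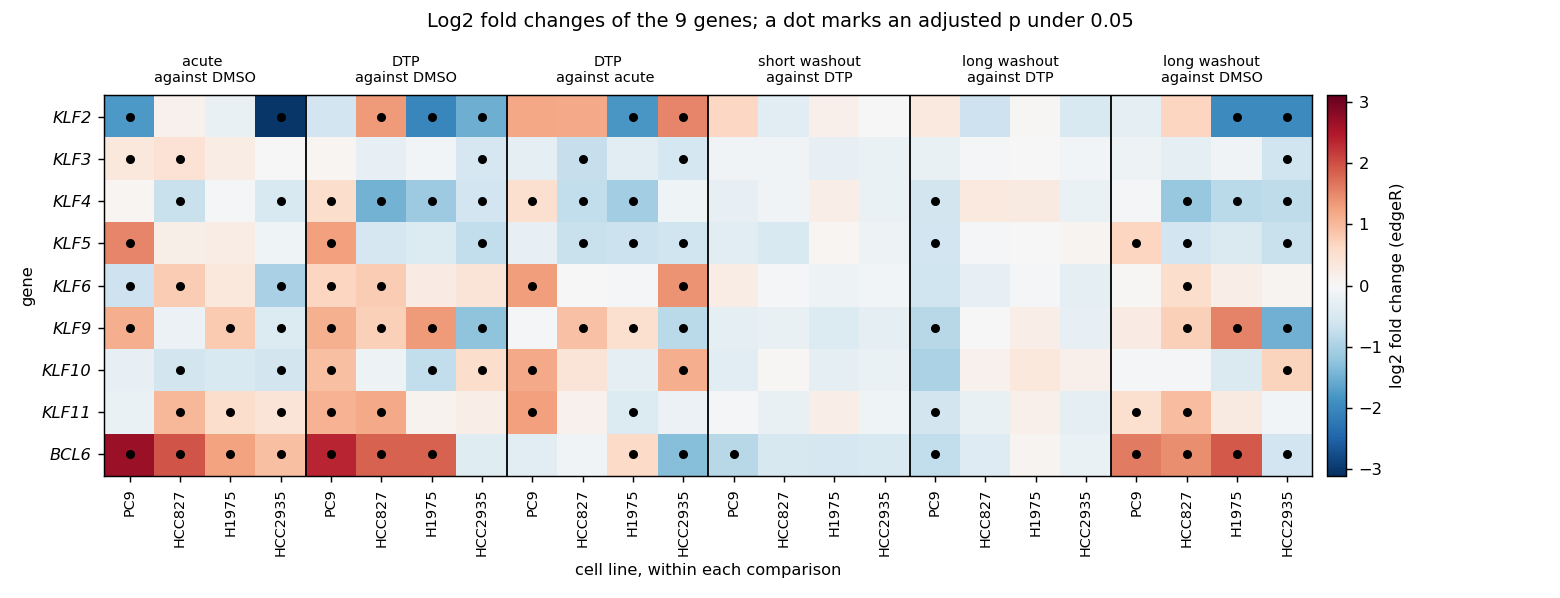
Log2 fold changes of the 9 genes (rows) in 6 comparisons and 4 lines (columns), from blue (lower) to red (higher), with a dot where the adjusted p is under 0.05. BCL6 is red and dotted in all 4 lines under acute osimertinib, KLF9 is dotted higher in 3 lines and lower in HCC2935 for DTP against DMSO, and the 2 comparisons of washout with DTP are pale outside PC9.

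BCL6 was the only member called higher in all 4 lines under acute osimertinib. In PC9 it was at 32.4, 41.3 and 48.1 CPM in the 3 DMSO libraries and at 296, 287 and 200.5 CPM in the acute libraries, a log2 fold change of 2.68 ± 0.21 (adjusted p = 1.42e-07). In HCC827 it went from 11, 8.10 and 12.9 to 36.4, 46.4 and 40.2 CPM (1.94 ± 0.19, adjusted p = 3.29e-06). In H1975 the values were 19.5, 23.0 and 26.3 CPM under DMSO and 55.0, 57.5 and 50.3 CPM with the drug (1.24 ± 0.18, adjusted p = 4.41e-05). The groups did not overlap in any of these lines. HCC2935 rose least, from 20.9, 23.1 and 29.7 to 41.4, 41.8 and 57.8 CPM (0.94 ± 0.17, adjusted p = 0.000323), again without overlap. The rise differed between the lines (adjusted p = 3.86e-06).

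After 21 days of osimertinib the lines parted over BCL6. DTP libraries of PC9 held 176, 239 and 210.4 CPM, those of HCC827 46.0, 39.6 and 29.1 CPM and those of H1975 96.6, 70.8 and 76.9 CPM, in each case above every DMSO library of the line, with log2 fold changes over DMSO of 2.36 ± 0.21, 1.84 ± 0.19 and 1.83 ± 0.18 (largest adjusted p = 3.93e-06). DTP libraries of HCC2935 held 16.0, 23.5 and 17.4 CPM, overlapping DMSO and lying below all 3 acute libraries. There BCL6 was -1.31 ± 0.17 against the acute arm (adjusted p = 1.68e-05) and -0.37 ± 0.17 against DMSO (adjusted p = 0.0812, and 0.0461 without DMSO replicate 1 or 0.0173 without DTP replicate 2). In H1975 the DTP level exceeded the acute level instead (0.58 ± 0.17, adjusted p = 0.0157, but 0.0618 without acute replicate 3 and 0.0737 without DTP replicate 1). PC9 and HCC827 did not pass this test (-0.32 ± 0.20 and -0.10 ± 0.18). The lines differed in both comparisons (adjusted p = 1.34e-10 for DTP against DMSO and 3.49e-06 for DTP against acute).

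Removal of the drug for 24 h left BCL6 lower than in DTP cells in PC9, at 119, 102 and 122 CPM (-0.86 ± 0.20, adjusted p = 0.026), with no overlap between the arms. In the other lines the short washout libraries held 29.4, 25.2 and 27.0 CPM in HCC827, 57.7, 50.3 and 61.1 CPM in H1975 and 14.4, 13.4 and 12.9 CPM in HCC2935. The log2 fold changes were -0.49, -0.53 and -0.48, none of which passed after adjustment (adjusted p = 1 in HCC827, 0.183 in H1975 and 0.161 in HCC2935), and in H1975 and HCC2935 the arms did not overlap. The value was thus negative in 4 of 4 lines and called in 1, and the lines were not shown to differ (adjusted p = 0.911). The PC9 call was lost without any 1 of DTP replicates 2 and 3 and short washout replicates 1, 2 and 3 (adjusted p of 0.0563 to 0.117), while the log2 fold change stayed between -0.91 and -0.75. In H1975 and HCC827, same-numbered DTP and short washout libraries deviated together, and with the replicate number as a block BCL6 was at -0.54 in H1975 (adjusted p = 0.159) and -0.48 in HCC827 (adjusted p = 1). That block raised the number of genes called in H1975 from 9 to 56, and leaving out DTP replicate 2 raised it to 590 (0 members). In PC9 the number went from 880 to 2636 without long washout replicate 3, with KLF5 called beside BCL6.

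With the long washout BCL6 was above its DMSO level in 3 lines. Long washout libraries held 95.2, 112 and 162 CPM in PC9, 31.5, 28.8 and 27.0 CPM in HCC827 and 72.7, 71.9 and 114 CPM in H1975, all above every DMSO library of the line, with log2 fold changes over DMSO of 1.60 ± 0.21, 1.45 ± 0.18 and 1.91 ± 0.18 (largest adjusted p = 4.54e-05). The same direction held in PC9 without long washout replicate 3 and in HCC827 without its 3 libraries that stood apart, where BCL6 remained called. In HCC2935 the long washout libraries held 16.0, 15.1 and 17.9 CPM, below every DMSO library (-0.59 ± 0.17, adjusted p = 0.0121, but 0.0697 without DMSO replicate 3). That call was also lost with limma on log2 TPM (adjusted p of 0.0680 and 0.0770 with a pseudocount of 1 and 0.01). Compared with DTP cells, BCL6 fell in PC9 (-0.76 ± 0.20, adjusted p = 0.00993, and 0.0503 without long washout replicate 1) and was not called in the other 3 lines. The summed proliferation genes rose from 899 to 908 CPM in the DTP libraries of PC9 to 1466 to 2347 CPM after the long washout, and whether BCL6 followed that rise was not tested.

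**Figure D3:**
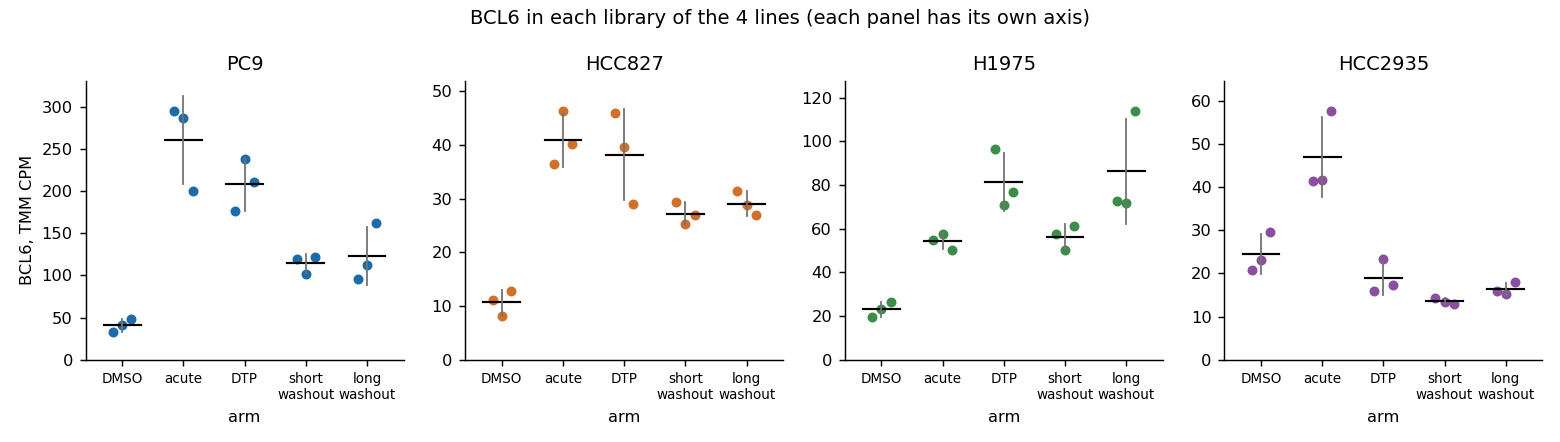
BCL6 in TMM CPM (vertical axes from 0, 1 scale per panel) in the 3 libraries of each arm (points), with the mean (black bar) and SD (grey line), in PC9, HCC827, H1975 and HCC2935. Acute libraries lie above all DMSO libraries in each line, and DTP libraries do so in all lines except HCC2935, where they hold 16.0 to 23.5 CPM against 20.9 to 29.7 under DMSO.

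KLF9 moved in opposite directions in different lines. It rose under acute osimertinib in PC9, from 4.09, 5.89 and 5.97 to 9.29, 13.1 and 12.7 CPM (1.14 ± 0.21, adjusted p = 0.000204), and in H1975, from 9.25, 5.98 and 8.70 to 12.4, 13.5 and 16.1 CPM (0.81 ± 0.16, adjusted p = 0.000717). In HCC827 it was not called (-0.19 ± 0.21). In HCC2935, where the untreated counts were 10.6-fold those of PC9 in the fit, it fell from 59.2, 60.5 and 62.4 to 49.5, 44.1 and 43.2 CPM (-0.41 ± 0.12, adjusted p = 0.012). None of the 3 called differences had overlapping groups, and the lines differed (adjusted p = 1.28e-06).

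In DTP cells KLF9 was higher than under DMSO in 3 lines and lower in HCC2935. DTP libraries held 13.1, 11.1 and 10.4 CPM in PC9 (1.11 ± 0.21), 9.22, 11.8 and 8.69 CPM in HCC827 (0.73 ± 0.21, adjusted p = 0.0124, but 0.0544 and 0.0624 without DMSO replicate 2 or DTP replicate 2) and 19.2, 18.5 and 22.0 CPM in H1975 (1.32 ± 0.16, adjusted p = 1.42e-05). Those of HCC2935 held 24.1, 29.9 and 22.7 CPM (-1.25 ± 0.13, adjusted p = 8.17e-07). No DTP library overlapped the DMSO libraries of its line. The difference between lines had an adjusted p of 6.58e-12, the smallest among the members in this comparison.

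After the long washout KLF9 was still called against DMSO in 3 lines. It was at 11.9, 8.07 and 9.74 CPM in HCC827 (0.73 ± 0.21 over DMSO, adjusted p = 0.0131, but 0.0569 without long washout replicate 1 or 0.0698 without DMSO replicate 2), 23.8, 23.6 and 21.9 CPM in H1975 (1.53 ± 0.16, adjusted p = 3.83e-06) and 23.1, 22.3 and 19.2 CPM in HCC2935 (-1.49 ± 0.13, adjusted p = 2.2e-07). In PC9 it was at 6.89, 4.88 and 7.34 CPM, lower than in DTP cells (-0.85 ± 0.20, adjusted p = 0.00591) and not called against DMSO (0.26 ± 0.21, adjusted p = 0.329). The change of KLF9 from DTP to long washout differed between lines (adjusted p = 0.0099), but no member's did without replicates 1 or without replicates 2, and 4 members' did with RLE size factors. The long washout lasted 3 to 10 days depending on the line, so line and washout time cannot be told apart here.

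KLF4, which is tied to epithelial differentiation, fell in 3 lines and rose in PC9. In HCC827 it went from 29.7, 42.6 and 25.6 CPM under DMSO to 21.1, 16.8 and 22.5 CPM in the acute arm and 12.1, 14.2 and 9.11 CPM in DTP cells. The log2 fold change was -0.70 ± 0.22 acutely (adjusted p = 0.0211, but 0.107 and 0.130 without acute replicate 2 or DMSO replicate 2, which at 42.6 CPM was the highest library) and -1.46 ± 0.22 in DTP cells (adjusted p = 0.000131). In H1975 the acute libraries, at 15, 33.7 and 27.8 CPM, overlapped the DMSO libraries, at 32.7, 19.5 and 27.0 CPM, and DTP cells held 9.90, 11.9 and 14.6 CPM (-1.12 ± 0.25 against DMSO, adjusted p = 0.00174). HCC2935 held 70.9, 79.0 and 97.4 CPM under DMSO, 57.9, 52.8 and 68.8 CPM in the acute arm and 57, 58.6 and 48.8 CPM in DTP cells. Its values were -0.46 ± 0.15 (adjusted p = 0.0175, and 0.0514 to 0.0922 without DMSO replicate 3 or acute replicate 1 or 2) and -0.59 ± 0.15 (adjusted p = 0.00325, but 0.0514 and 0.0639 with limma on log2 TPM with a pseudocount of 1 or 0.01).

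PC9 was the exception for KLF4. There the acute libraries held 70.3, 65.2 and 68.3 CPM, inside the DMSO range of 67.9, 57.2 and 71.8 CPM, and the DTP libraries 93.6, 96.9 and 98.6 CPM, above all 6 of these (0.55 ± 0.09 against DMSO, adjusted p = 5.45e-05). After the long washout KLF4 was back at 64.2, 59.9 and 69.3 CPM, -0.58 ± 0.09 against DTP cells (adjusted p = 0.000916) and -0.03 ± 0.09 against DMSO. The other 3 lines stayed below DMSO after the long washout, with log2 fold changes of -1.16 in HCC827, -0.84 in H1975 (adjusted p = 0.0107, but 0.0520 without DMSO replicate 1) and -0.79 in HCC2935. The lines differed for DTP against DMSO (adjusted p = 2.05e-07) and for long washout against DMSO (adjusted p = 0.00346).

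**Figure D4:**
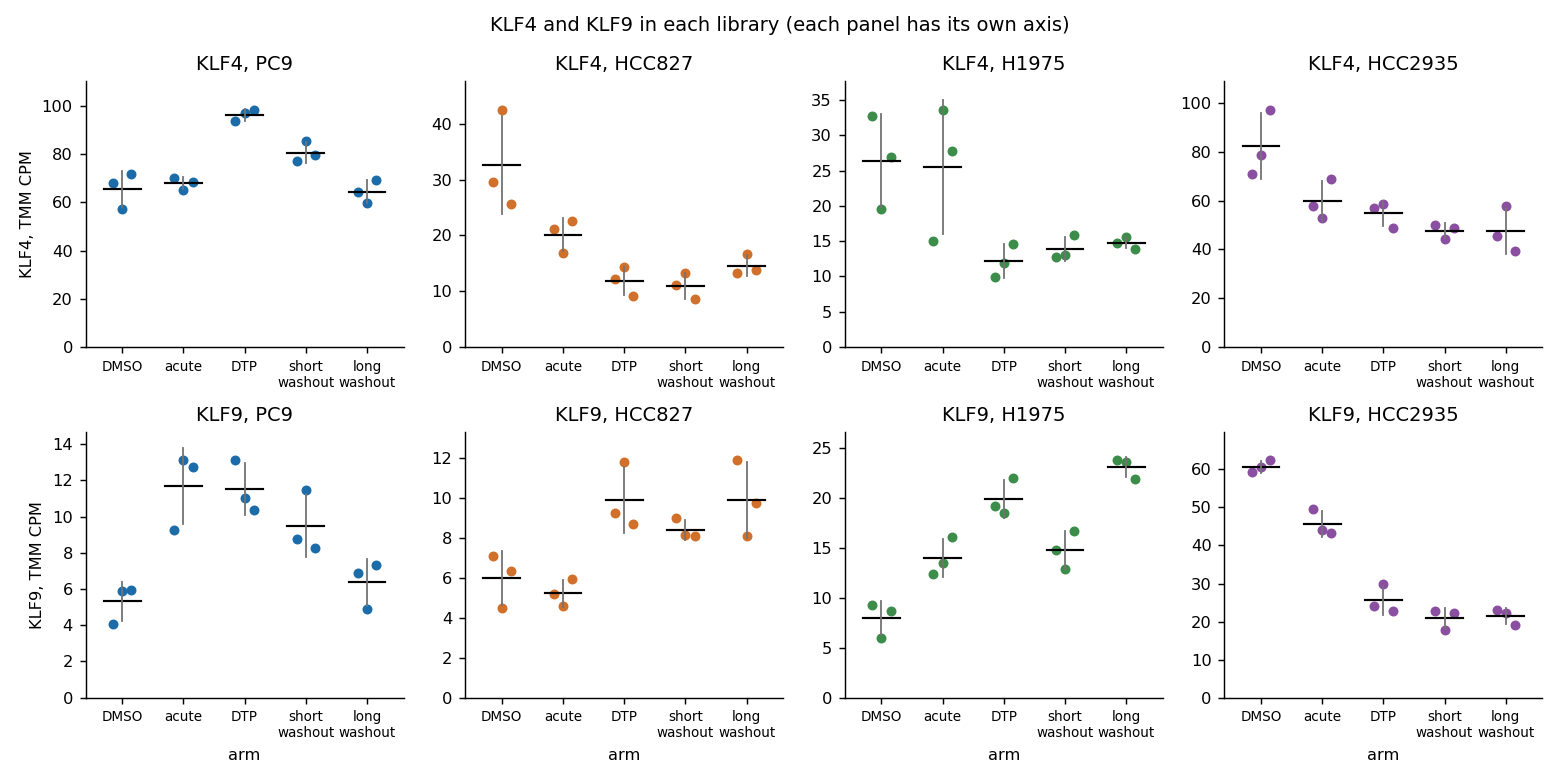
KLF4 (upper row) and KLF9 (lower row) in TMM CPM (vertical axes from 0, 1 scale per panel) in each library of the 4 lines by arm. Points are libraries, black bars means and grey lines SD. KLF4 rises in PC9 DTP cells to 93.6 to 98.6 CPM and falls in the DTP cells of the other 3 lines. KLF9 falls in HCC2935 from 59.2 to 62.4 CPM to 22.7 to 29.9 CPM and rises in the DTP cells of the other 3.

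KLF5, the factor of proliferating epithelial progenitors, also parted PC9 from the rest. Under DMSO PC9 held 62.2, 51.4 and 55.5 CPM, and the acute and DTP libraries held 155, 163 and 166 and 144, 137 and 124 CPM. The groups lay far apart, with log2 fold changes of 1.52 ± 0.15 and 1.26 ± 0.15 (adjusted p = 6.54e-07 and 3.59e-06). In HCC2935 the acute arm was not called (-0.14 ± 0.13), and DTP libraries held 104, 114 and 112 CPM against 154, 208 and 201 CPM under DMSO (-0.77 ± 0.13, adjusted p = 0.00013). HCC827 and H1975 were not called in either comparison with DMSO, with DTP values of -0.52 ± 0.20 (adjusted p = 0.0534) and -0.42 ± 0.22. In HCC827 the fall was called by DESeq2 (adjusted p = 0.0328), without a filter (0.0416) and in a fit of all 60 libraries (0.0191), but not by limma on log2 TPM. It was also called without the 3 libraries that stood apart (-0.84, adjusted p = 0.0032). DTP replicate 1 there held 85.4 CPM and replicates 2 and 3 held 53.8 and 48.4 CPM. DTP cells were below acute cells in HCC2935 (-0.63 ± 0.13, adjusted p = 0.00102), and in HCC827 and H1975 at adjusted p = 0.0187 and 0.0309, calls that 3 libraries of each line could end when left out singly (acute replicate 2 and DTP replicates 2 and 3 of HCC827, with adjusted p of 0.0502 to 0.0742, and acute replicates 2 and 3 and DTP replicate 3 of H1975, with 0.106 to 0.123). For this comparison the lines were not shown to differ (adjusted p = 0.399). After the long washout KLF5 remained above DMSO in PC9, at 88.5, 68.2 and 114 CPM (0.68 ± 0.14), and below it in HCC2935 (-0.69 ± 0.13) and HCC827 (-0.59 ± 0.20, adjusted p = 0.0316, lost at 0.0895 to 0.149 without DMSO replicate 3 or long washout replicate 2 or 3). The HCC827 call was also lost with library size only (adjusted p = 0.0721). It was lost with limma on log2 TPM too (0.0842 and 0.102 with a pseudocount of 1 and 0.01).

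KLF3 changed little in size. Acute libraries of HCC827 held 125, 124 and 122 CPM against 88.5, 88.3 and 93.4 CPM under DMSO (0.46 ± 0.14, adjusted p = 0.0169, and 0.0506 without DMSO replicate 2), and those of PC9 84.3, 82.1 and 89.8 against 62.5, 66.3 and 74.6 CPM (0.33 ± 0.12, adjusted p = 0.0209, and 0.0605 to 0.0870 without DMSO replicate 1 or 2 or acute replicate 3). The groups did not overlap in either line. In HCC2935, DTP cells fell to 90.7, 111 and 99.1 CPM from 151, 135 and 145 CPM (-0.52 ± 0.09, adjusted p = 0.000228) and stayed there after the long washout (-0.61 ± 0.09, adjusted p = 8.41e-05). In HCC827, DTP cells were below acute cells (-0.71 ± 0.14, adjusted p = 0.00165), and the difference from DMSO was -0.25 ± 0.14, called without the 3 libraries that stood apart (-0.45, adjusted p = 0.00895), as was long washout against DMSO (-0.39, adjusted p = 0.0196).

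KLF2, a factor of endothelial quiescence and lymphocyte traffic, held the largest falls and the smallest counts among the members. In HCC2935 it went from 19.0, 37.4 and 28.5 CPM under DMSO to 3.14, 2.65 and 4.69 CPM in the acute arm (-3.01 ± 0.41, adjusted p = 2.07e-05), with no overlap. DTP libraries held 10.2, 12.7 and 6.91 CPM, between the 2 (-1.5 ± 0.37 against DMSO, adjusted p = 0.00302, and 1.51 ± 0.40 against acute, adjusted p = 0.00615). In H1975 the order of the arms was different. Acute libraries, at 9.18, 10.2 and 7.63 CPM, overlapped DMSO, at 5.55, 14.3 and 11.8 CPM, and DTP libraries held 2.88, 2.43 and 2.48 CPM (-2.02 ± 0.35, adjusted p = 0.000253). In PC9 it fell from 1.06, 0.483 and 0.798 CPM to 0.294, 0.116 and 0.261 CPM (-1.79 ± 0.51, adjusted p = 0.00612), which rests on 22 to 37 counts per DMSO library and 5 to 11 per acute library. HCC827 held 0.466, 1.28 and 0.770 CPM under DMSO and 2.60, 2.37 and 1.31 CPM in DTP cells (1.31 ± 0.47, adjusted p = 0.0341), a rise that was lost without DMSO replicate 1 or 3 or DTP replicate 1 or 2 (0.0885 to 0.125) and without the 3 libraries that stood apart (1.09, adjusted p = 0.103). After the long washout KLF2 was still lower than under DMSO in H1975 (-1.98 ± 0.35) and HCC2935 (-1.97 ± 0.38), and the DTP change differed between lines (adjusted p = 6e-05).

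KLF6 and KLF10, both rapidly inducible, fell acutely in some lines and were higher in DTP cells than in acute cells in PC9 and HCC2935. In HCC2935 KLF6 went from 94.5, 134 and 127 CPM under DMSO to 58.2, 62.3 and 57.9 CPM in the acute arm (-1.0 ± 0.19, adjusted p = 0.000503) and 162, 174 and 131 CPM in DTP cells (1.39 ± 0.19 against acute, adjusted p = 2.71e-05). In PC9 the values were 62.9, 50.2 and 68.2, then 31.4, 26.6 and 58.6, then 80.6, 81.4 and 125 CPM. The acute fall there (-0.64 ± 0.25, adjusted p = 0.0362) was lost without DMSO replicate 1 or 3 or acute replicate 1 or 2 (0.0808 to 0.145), and the rise over DMSO (0.66 ± 0.25, adjusted p = 0.0279) without DMSO replicate 1 or 2 or DTP replicate 3 (0.0543 to 0.191). HCC827 moved the other way acutely, from 96.3, 114 and 63.8 to 153, 140.3 and 179.7 CPM (0.79 ± 0.16, adjusted p = 0.00135), and stayed there in DTP cells (0.80 ± 0.16). H1975 was not called in any comparison, with 156 to 284 CPM over its 15 libraries (the acute change passed without acute replicate 3, at 0.49 with an adjusted p of 0.0471). The lines differed for the acute change (adjusted p = 1.72e-05) and were not shown to differ for DTP against DMSO (adjusted p = 0.425), where the value was positive in 4 of 4 lines.

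KLF10 fell under acute osimertinib in HCC2935 (-0.57 ± 0.15, adjusted p = 0.00462) and HCC827 (-0.57 ± 0.20, adjusted p = 0.032, but 0.0850 to 0.170 without DMSO replicate 2 or acute replicate 1 or 2). It was negative in 4 of 4 lines, and these were not shown to differ (adjusted p = 0.881). HCC2935 then held 81.7, 103 and 77.4 CPM in DTP cells against 61.1, 63.7 and 55.0 CPM under DMSO (0.54 ± 0.15, adjusted p = 0.00496), while H1975 held 43.3, 42.6 and 40.4 CPM against 78.6, 56.9 and 80.2 CPM (-0.77 ± 0.22, adjusted p = 0.0083). In PC9 the DTP libraries held 62.5, 70.9 and 196 CPM, with 1 library far above the other two, and the call against DMSO (0.93 ± 0.40, adjusted p = 0.0498) went to 0.18 with an adjusted p of 0.630 without DTP replicate 3. The call against the acute arm (1.19 ± 0.40, adjusted p = 0.0342) likewise went to 0.48 with an adjusted p of 0.298. The call against DMSO was lost on leaving out any of 11 of the 15 libraries (adjusted p of up to 0.630), and that against the acute arm also without acute replicate 1 or 2 (0.112 to 0.298 over these and DTP replicate 3). In a fit of all 60 libraries the HCC2935 calls against DMSO were lost too (adjusted p = 0.0901 acutely, 0.127 in DTP cells and 0.0540 after the long washout). The acute HCC827 call was lost in that fit as well (adjusted p = 0.111). With library size only (0.0525) and with limma on log2 TPM (0.0648 and 0.0781 with a pseudocount of 1 and 0.01) it also did not pass. In HCC827, DTP against acute was called without the 3 libraries that stood apart (0.53, adjusted p = 0.0255). DTP replicate 3 of PC9 also held the most EGR1 of the PC9 DTP libraries, 268 CPM against 36.8 and 85.7.

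KLF11 rose under acute osimertinib in 3 lines. In HCC827 it went from 21.3, 22.4 and 20.2 to 41.8, 40.5 and 47.7 CPM (1.02 ± 0.11, adjusted p = 6.97e-06), in H1975 from 32.8, 32.8 and 34.3 to 46.9, 58.2 and 40.7 CPM (0.54 ± 0.12, adjusted p = 0.00161), and in HCC2935 from 39.5, 46.1 and 42.8 to 56.8, 54.4 and 56.8 CPM (0.39 ± 0.15, adjusted p = 0.0392). The groups did not overlap, and the last of these calls was lost without any 1 of its 6 libraries or short washout replicate 1 (0.0501 to 0.133). In PC9 the acute libraries overlapped DMSO (-0.20 ± 0.17), and the rise came in DTP cells, at 45.8, 52.3 and 60.3 CPM against 23.7, 28.9 and 22.7 CPM (1.07 ± 0.17, adjusted p = 6.78e-05, and 1.27 ± 0.17 against acute). HCC827 kept its rise in DTP cells (1.16 ± 0.11) and after the long washout (0.95 ± 0.11, adjusted p = 1.37e-05). In H1975 and HCC2935 DTP cells were not called against DMSO (0.12 ± 0.12 and 0.22 ± 0.15). In PC9 the long washout arm stayed above DMSO (0.50 ± 0.17, adjusted p = 0.0293, with overlapping groups), a call lost without DMSO replicate 1 or 3 or long washout replicate 1 or 3 (0.0886 to 0.115). There KLF11 fell from DTP cells to long washout (-0.58 ± 0.17, adjusted p = 0.0172, but 0.0839 and 0.0938 without long washout replicate 2 or DTP replicate 3). The difference between lines was called for the acute change (adjusted p = 5.98e-05), for DTP against DMSO (9.52e-06) and for DTP against acute (2.25e-08).

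Of the 36 pairs of a member and a line, short washout was called once, and in HCC827, H1975 and HCC2935 none of the 9 members passed with edgeR, DESeq2 or limma on log2 TPM. At an unadjusted p under 0.05, edgeR gave 3 in HCC827 (KLF5, KLF11 and BCL6), 2 in H1975 (KLF9 and BCL6) and 3 in HCC2935 (KLF3, KLF9 and BCL6), with log2 fold changes of -0.53 to -0.20, all negative. Over all genes HCC827 had 0 calls with edgeR, 291 at an unadjusted p under 0.05 and 0 with DESeq2 for this comparison, and 0, 502 and 3 for long washout against DTP. For long washout against DTP, no member passed in HCC827, H1975 or HCC2935 by any of the 3 tools, and at an unadjusted p under 0.05 edgeR gave BCL6 in HCC827 and none in the other two. Leaving out DTP replicate 2 of H1975, or the 3 libraries of HCC827 that stood apart, gave 0 member calls as well.

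Replicates of the same group differed in KLF6 and KLF10 in step with the immediate-early gene EGR1. Each library's deviation from its group mean was taken on the log2(CPM + 1) scale, which removes line and arm, and correlated with that of EGR1 over 60 libraries. Pearson's r was 0.65 for KLF6, 0.64 for KLF10 and 0.50 for KLF4, and 0.06 for BCL6, 0.09 for KLF9 and 0.09 for KLF5, with KLF2 at 0.34, KLF11 at 0.32 and KLF3 at 0.16 between them. Of 13805 genes, 0.116% had an r at or above that of KLF6, 0.123% at or above KLF10 and 0.326% at or above KLF4. Within lines r for KLF6 was 0.86 in PC9, 0.83 in HCC2935, 0.66 in H1975 and 0.36 in HCC827, and for KLF10 it was 0.74, 0.26, 0.80 and 0.80 in the same order. For KLF4 it was 0.20, 0.28, 0.59 and 0.67. The pooled values near 0 hid line values of both signs, from -0.25 to 0.45 for BCL6, -0.53 to 0.66 for KLF9 and -0.14 to 0.62 for KLF5. Without the 2 libraries farthest from the median of EGR1 (short washout replicate 2 and DTP replicate 2 of HCC827) r was 0.71 for KLF6 and 0.63 for KLF10. With the summed 12 immediate-early genes, chosen after the values were seen, r was 0.77 for KLF6 and 0.73 for KLF10. With MKI67, 1 of the proliferation genes, r was -0.44 for BCL6 and ranged from -0.22 (KLF3) to 0.29 (KLF10) for the other members. These are descriptions over libraries that share lines and arms, with no p. EGR1 itself ranged over the HCC827 DTP libraries from 4.07 to 148 CPM and over the acute libraries from 8.62 to 307 CPM, and the part of EGR1's variation between replicates in the group differences of KLF4, KLF6 and KLF10 was not tested.

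**Figure D5:**
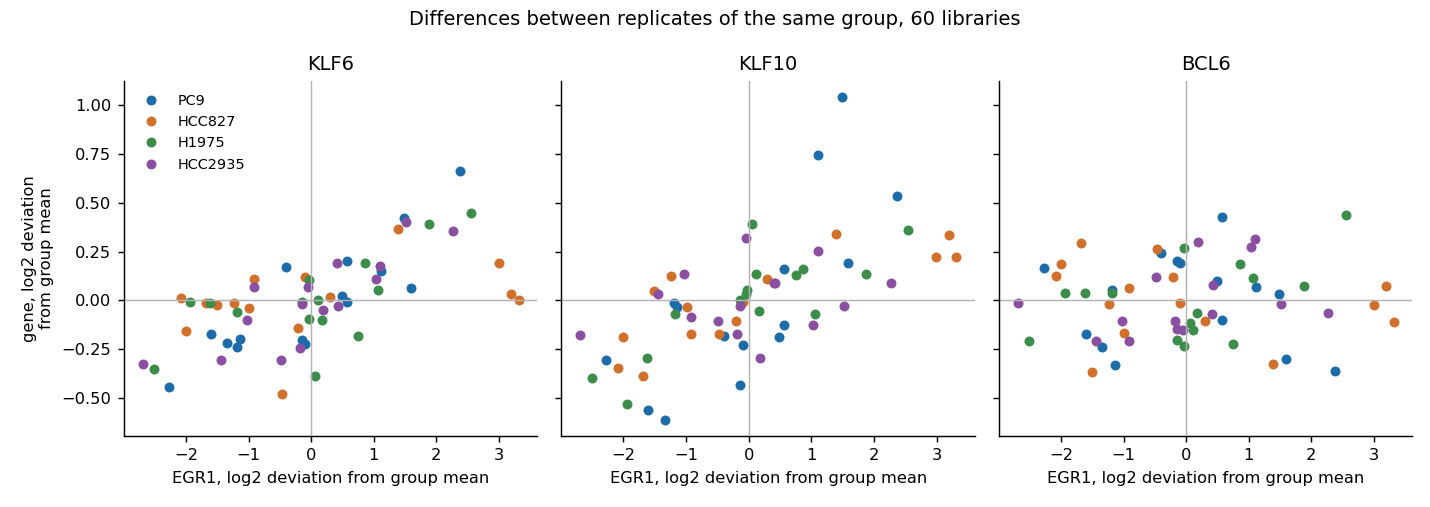
Deviation of each of 60 libraries from its group mean, log2 scale, for EGR1 (horizontal axis) and for KLF6, KLF10 and BCL6 (vertical axis, 1 panel each), coloured by line. The points of KLF6 and KLF10 slope upward (r of 0.65 and 0.64), and those of BCL6 do not (r of 0.06).

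Promoters were read for the members near the ends of that range, KLF4 and KLF6, among the members with the highest pooled r with EGR1, and BCL6, with the lowest. The 250 bases before the RefSeq start are shown for GRCh38.p14, on the strand of the gene, at chr9:107489770-107490019 (minus strand) for KLF4, chr10:3785210-3785459 (minus strand) for KLF6 and chr3:187745469-187745718 (minus strand, the first of 2 RefSeq starts) for BCL6. Capitals mark the GC box that Krüppel-like and SP factors bind, GGGCGG or its reverse complement CCGCCC.
KLF4: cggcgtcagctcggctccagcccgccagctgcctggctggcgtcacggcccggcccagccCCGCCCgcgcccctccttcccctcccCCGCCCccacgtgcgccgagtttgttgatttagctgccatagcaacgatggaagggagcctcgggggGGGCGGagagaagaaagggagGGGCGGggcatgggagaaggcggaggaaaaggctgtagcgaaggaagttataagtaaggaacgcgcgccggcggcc
KLF6: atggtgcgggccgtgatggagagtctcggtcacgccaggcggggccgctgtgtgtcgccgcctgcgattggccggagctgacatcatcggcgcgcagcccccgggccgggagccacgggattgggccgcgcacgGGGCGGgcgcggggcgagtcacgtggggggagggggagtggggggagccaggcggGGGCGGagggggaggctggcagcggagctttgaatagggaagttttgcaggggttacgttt
BCL6: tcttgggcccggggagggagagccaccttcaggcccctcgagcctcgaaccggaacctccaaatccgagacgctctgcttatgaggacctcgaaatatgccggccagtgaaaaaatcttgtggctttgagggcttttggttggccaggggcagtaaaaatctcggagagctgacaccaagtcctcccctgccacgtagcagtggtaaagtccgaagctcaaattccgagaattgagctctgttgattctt
These stretches hold 4, 2 and 0 GC boxes and have a GC content of 69.2%, 72.4% and 54.4%, over their 250 bases. The median over the same 250 bases of all 300-base windows of the table was 58.0%. Each shown stretch is the part of its window before the start. The RefSeq table matched 7 of 9 members (KLF3 and KLF10 had no entry), and windows ran from 250 bases before to 50 after the start. On either strand, GGGCGG was present in 6 of the members' 10 RefSeq entries and 45.0% of all 35116 entries, CACCC in 3 of 10 and 59.9%, the SMAD letters CAGAC in 3 of 10 and 45.3%, the glucocorticoid receptor letters AGAACA in 2 of 10 and 14.8%, and the FOXO letters GTAAACA in 0 of 10 and 3.42%. The windows not shown held 6 GC boxes for KLF2, 0 for KLF9, 0 and 2 for the entries of KLF5, and 2 and 7 for those of KLF11. Both entries of BCL6 held 0. Whether the number of GC boxes followed r with EGR1 was not tested. A match is a run of letters in this window and was not tied to binding.

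The genes most like each member over the 20 group means, after the mean of each line was removed, were found by Pearson's r on the log2(CPM + 1) scale among 13805 genes. BCL6 was followed most closely by GABARAP (r = 0.97), SECTM1 (0.95) and NCOA1 (0.95). KLF6 was nearest to GLIS3 (0.92), NEXN (0.90) and JUN (0.90), and KLF10 to RBMS1 (0.84), EGR1 (0.80) and TBL2 (0.79). For KLF5 the nearest were HDHD3, EPS8L1 and MBOAT1 (0.93 to 0.94), for KLF3 ADGRF1, ZNF600 and TKFC (0.92 to 0.94), for KLF4 KALRN, CRYBG3 and TMEM141 (0.89 to 0.90), for KLF9 MED13L, NOXA1 and ZBTB7C (0.88), for KLF11 TNNT2, H2BC21 and XAF1 (0.86 to 0.93) and for KLF2 EVI2B, SPHK1 and AKR1E2 (0.82 to 0.86). Among the members the closest pairs were KLF3 with KLF5 (0.80), KLF9 with BCL6 (0.73), KLF4 with KLF5 (0.70) and KLF6 with KLF11 (0.62). All values are Pearson correlations over 20 means that share lines and drug arms.

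Other members of the family were followed as a list. Of 9 listed (KLF1, KLF7, KLF8, KLF12 to KLF17), 6 were tested in PC9 and HCC2935, 5 in HCC827 and 8 in H1975. Under acute osimertinib, 1 was called higher and 2 lower in PC9, 1 higher in HCC827, 4 higher in H1975 and 1 higher and 1 lower in HCC2935. The medians of their log2 fold changes were -0.35, 0.74, 0.43 and 0.24, beside medians of all genes of 0.02 to 0.10. Of all genes, 34.5% were higher and 31.7% lower in PC9, 18.7% and 20.2% in HCC827, 27.8% and 23.8% in H1975, and 24.9% and 22.2% in HCC2935. KLF8 rose in PC9 (from 21.8 to 145 CPM, a log2 fold change of 2.74) and H1975 (from 1.89 to 6.48 CPM, 1.78), and KLF13 rose acutely and in DTP cells in the 3 lines where it was tested (0.84 to 2.07). Of the SP factors, which bind the same GC boxes, SP4 fell acutely in PC9, H1975 and HCC2935 (-1.44, -0.47 and -0.57). In DTP cells 5 of 7 tested in HCC2935 were lower, where 25.8% of all genes were lower.

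Genes that BCL6 represses in lymphocytes went both ways. Of those tested, 2 were higher and 5 lower of 8 in PC9 acutely, 1 and 2 of 9 in HCC827, 5 and 2 of 9 in H1975, and 3 and 2 of 10 in HCC2935. Of all genes, 34.5% were higher and 31.7% lower in PC9, 18.7% and 20.2% in HCC827, 27.8% and 23.8% in H1975, and 24.9% and 22.2% in HCC2935. CHEK1, a cell cycle checkpoint kinase, fell in all 4 lines (-0.89 to -1.91), as the proliferation genes did, while ID2, an inhibitor of differentiation factors, rose in HCC827, H1975 and HCC2935 (0.54, 1.40 and 1.29). In DTP cells CCND2 was higher in H1975 and HCC2935 (5.16 and 1.35) and not called in HCC827 (1.37). There ID2 was higher in PC9, HCC827 and HCC2935 (3.33, 1.30 and 2.35) and lower in H1975 (-1.07). Whether BCL6 acted on these genes was not tested.

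Factors known to act upstream of KLF2, KLF4 and BCL6 (FOXO, MEF2 and STAT factors, SRF and the ERK5 pathway) were called higher or not at all under acute osimertinib. Of 12, 8 were higher in PC9, 7 in HCC827, 9 in H1975 and 5 in HCC2935, and 0 lower in any line, where 34.5%, 18.7%, 27.8% and 24.9% of all genes were higher, with medians of 0.67, 0.47, 0.54 and 0.23. Of all genes, 31.7%, 20.2%, 23.8% and 22.2% were lower acutely in the same order. FOXO4 rose in all 4 lines (1.74 to 3.37), from 6.95 to 39.8 CPM in PC9. These are RNA levels, and whether the factors acted on the members was not tested. TGF-beta early response genes, listed because TGF-beta is known to induce KLF10 and KLF11, were higher and lower in 6 and 4 of 12 in PC9 acutely, 4 and 0 in HCC827, 6 and 0 in H1975 and 3 and 3 in HCC2935. In DTP cells the counts were 7 and 2, 6 and 1, 5 and 4, and 9 and 0 in the same order. Of all genes, 35.7% were higher and 33.5% lower in DTP cells of PC9, 23% and 20.4% in HCC827, 26% and 25.7% in H1975, and 27% and 25.8% in HCC2935. Acute shares of all genes, for this list and the next, are those given above. Glucocorticoid response genes, listed for KLF9, were higher and lower in 5 and 3 of 10 in PC9 acutely, 2 and 3 in HCC827, 5 and 1 in H1975 and 1 and 4 in HCC2935. Whether KLF9 followed these genes was not tested. FKBP5, a glucocorticoid receptor target, fell acutely in all 4 lines (-0.54 to -3.18) and TSC22D3 rose in PC9, H1975 and HCC2935 (3.04, 1.53 and 0.78).

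Epithelial differentiation genes were counted in each line, with no test between lines. In PC9, 8 of 12 were higher and 0 lower acutely and 10 and 0 in DTP cells (median 1.46), where 34.5% and 35.7% of all genes were higher, and the keratin KRT4 went from 0.435 CPM under DMSO to 24.6 CPM acutely and 73.4 CPM in DTP cells. In HCC2935, 2 were higher and 7 lower of 12 acutely and 2 and 6 in DTP cells (median -0.31), where 22.2% and 25.8% of all genes were lower, in HCC827 2 and 0 of 10, then 1 and 3, and in H1975 3 and 1 of 9, then 1 and 5. Of all genes in HCC827, 18.7% were higher and 20.2% lower acutely, and 23% and 20.4% in DTP cells. In H1975 the shares were 27.8% and 23.8%, then 26% and 25.7%. Of the MAPK output genes, 10 to 12 of 12 were lower and 0 higher acutely in each line, and 12 of 12 proliferation genes were lower both acutely and in DTP cells. Over the 4 lines, 20.2% to 31.7% of all genes were lower acutely and 20.4% to 33.5% in DTP cells. DUSP6, a phosphatase induced by ERK signalling, fell acutely in all 4 lines (-3.40 to -5.98). In DTP cells of HCC827 it was at 15.8 ± 9.29 CPM against 20 ± 2.26 under DMSO (SD, n = 3), which did not pass (adjusted p = 0.618). The gene lists were chosen with earlier results known, and the counts were not tested against other genes.

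In GENCODE 29 on GRCh38, BCL6 spans 187721377 to 187745727 on chromosome 3 (minus strand) and is overlapped by 2 antisense genes, KLF11 has 1 (chromosome 2, 10042849 to 10054836) and KLF3 overlaps KLF3-AS1 (chromosome 4, 38664196 to 38701042). KLF4 (107484852 to 107490482) and KLF9 (70384597 to 70414624) are both on chromosome 9, minus strand, and the other members each lie on a chromosome of their own. No source says whether counting was strand-specific, so reads of these antisense genes cannot be told apart from those of BCL6, KLF3 and KLF11. KLF2 has 4 named pseudogenes, KLF3 has 2 and KLF4 has 1, and their reads could have been shared.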

How the data were processed

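RNA-seq of 60 libraries was used, grouped, numbered and dosed as their labels state. Estimated counts for each gene symbol were deposited without normalization between libraries, beside log2 TPM values with a pseudocount of 0.01. Per the labels' processing notes, HISAT2 2.1.0, Salmon 0.8.2 and hg38 were used, with no role or order stated. The annotation, the step from transcripts to genes and strandedness are not given in the sources used here. Totals were 17.7 to 49.1 M counts per library. Their number limits the precision of low genes such as KLF2.

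After rounding, the counts went into edgeR 4.0.16 (R 4.3.3) in each line's 15 libraries, with TMM normalization, filterByExpr with the 5 arms as groups, the quasi-likelihood F-test, Benjamini-Hochberg adjustment over all genes tested in the line and calls at an adjusted p under 0.05. The 5 arms shared 1 estimate of the spread. Standard errors were derived from the fold change and its F value. Differences between lines were tested in all 60 libraries with 3 degrees of freedom, and untreated levels in the 12 DMSO libraries. The pipeline was tested on simulated data. Alternatives were DESeq2 1.42.0, limma 3.58.1 on log2 TPM, other scaling, filters and library sets, a replicate block, and leaving out each library. Leaving out libraries that stood apart was added after seeing the data.

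Same-numbered libraries deviated together, with every correlation of deviations from group means over 0.1, for DTP and short washout in HCC827 (0.40 to 0.69) and H1975 (0.25 to 0.60) and for DMSO and acute osimertinib in HCC2935 (0.13 to 0.36). In none of 60 pairs of replicates did counts agree within sampling noise. Named genes were all 9 members, in each list the 2 genes with the largest absolute mean log2 fold change over lines among those called in at least 2 lines (for acute osimertinib and for DTP against DMSO), and the 3 genes most correlated with each member. DUSP6 in the DTP arm was named beyond that rule, and EGR1 and the immediate-early list were chosen after values were seen. The members and lists were chosen with earlier results of these data known. The list of corepressors is not reported here. Promoter sequences are from RefSeq (GRCh38.p14).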

Additional observations from a re-analysis of the deposited data

Results flagged for a closer look

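The change differed between the 4 lines, by the quasi-likelihood F-test across all genes with Benjamini-Hochberg adjustment, for 6 of 9 members under acute osimertinib, 8 for DTP against DMSO, 7 for DTP against acute osimertinib, 1 for long washout against DTP (KLF9) and 7 for long washout against DMSO. Several members were called in opposite directions in different lines. Under acute osimertinib these were KLF6 (higher in HCC827, lower in PC9 and HCC2935, adjusted p of the difference = 1.72e-05) and KLF9 (higher in PC9 and H1975, lower in HCC2935, 1.28e-06).

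For DTP against DMSO, KLF2 was higher in HCC827 and lower in H1975 and HCC2935 (6e-05), and KLF4 was higher in PC9 and lower in the other 3 lines (2.05e-07). KLF5 was higher in PC9 and lower in HCC2935 (5.06e-08), KLF9 was higher in 3 lines and lower in HCC2935 (6.58e-12), and KLF10 was higher in PC9 and HCC2935 and lower in H1975 (0.00171), where the PC9 call was lost on leaving out any of 11 of the 15 libraries and the HCC2935 call in a fit of all 60 libraries.

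For DTP against acute osimertinib, KLF2 was higher in HCC2935 and lower in H1975 (1.16e-05), KLF4 was higher in PC9 and lower in HCC827 and H1975 (2.78e-05), and KLF9 was higher in HCC827 and H1975 and lower in HCC2935 (1.36e-06). KLF11 was higher in PC9 and lower in H1975 (2.25e-08), and BCL6 was higher in H1975 and lower in HCC2935 (3.49e-06). The HCC827 call of KLF4 was lost without acute replicate 1 or 3 or DTP replicate 3 (adjusted p of 0.0557 to 0.0706). In H1975 the KLF9 call was lost without acute replicate 1 or 2 or DTP replicate 3 (0.0633 to 0.0717). The H1975 calls of KLF11 (0.0760 without acute replicate 2) and BCL6 (0.0618 to 0.0737, acute replicate 3 or DTP replicate 1) were lost as well. For long washout against DMSO, KLF5 was higher in PC9 and lower in HCC827 and HCC2935 (8.46e-05), KLF9 was higher in HCC827 and H1975 and lower in HCC2935 (1.21e-12), and BCL6 was higher in 3 lines and lower in HCC2935 (1.16e-09). Of these, the HCC827 calls of KLF5 and KLF9 and the HCC2935 call of BCL6 were lost under the alternatives given above.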

How the results depend on the processing

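No called member changed sign under any alternative. Of 36 pairs of a member and a line, 22 were called for acute osimertinib (14 at an adjusted p under 0.01, 8 with at least a 2-fold change), 24 for DTP against DMSO (14 with 2-fold), 21 for DTP against acute (9 with 2-fold) and 20 for long washout against DMSO (8 with 2-fold). For short washout against DTP, where 1 was called, DESeq2 gave 2, limma on log2(TPM + 0.01) gave 0, the 6 libraries compared alone gave 3, an adjusted p under 0.01 gave 0, 2-fold gave 0, and PC9 without long washout replicate 3, added after seeing the data, gave 2. For long washout against DTP, where 5 were called, the 6 libraries alone gave 3 and 2-fold gave 0. Leaving out 1 library gave 19 to 24, 22 to 25, 18 to 22, 0 to 2, 4 to 6 and 18 to 21 calls for acute, DTP against DMSO, DTP against acute, short washout, long washout against DTP and long washout against DMSO. Differences between lines numbered 6 to 7, 6 to 8, 6 to 8, 0, 0 to 1 and 6 in the same order without 1 replicate number, and 38 to 43 for untreated levels, where 42 were called. For long washout against DTP, where 1 differed, RLE size factors gave 4, library size alone 4, no filter 2 and at least 10 counts in every library 4. The cause of these shifts was not tested.

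Adding a replicate block gave calls of 22, 23, 23, 1, 6 and 20 in the order above. KLF10 in PC9 for DTP against DMSO was lost (0.82, adjusted p = 0.0676), and KLF2 in PC9 (1.30, 0.0381) and KLF3 in H1975 (-0.33, 0.0483) for DTP against acute and KLF6 in PC9 for long washout against DTP (-0.59, 0.0204) were gained. The block changed no other member call. Only the comparisons named as paired in the methods passed the check of the numbers, and these 4 were not among them.

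In all 60 libraries KLF10 in HCC2935 lost its calls under acute osimertinib (adjusted p = 0.0901) and for DTP against DMSO (0.127). It also lost that for long washout against DMSO (0.0540), and KLF10 in HCC827 lost its acute call (0.111). In PC9, long washout replicate 3 also decided KLF10 for DTP against DMSO (0.90, 0.0581 without it), KLF5 for short washout (-0.34, 0.0401) and KLF11 for long washout against DMSO (0.42, 0.0953). Depth limits KLF2, which had as few as 5 counts in a library.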
